A study of Mus musculus with 12 samples.

Results

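The 40 genes described here are known interferon-stimulated genes that belong to none of the better known families (OAS, IFIT, IFITM, Mx, the GBP and IRG GTPases, ISG15 and antigen presentation). They were taken by gene symbol from a table of 27503 genes, and all 40 were present and passed the filter on low counts, as did 17590 genes in all. The RNA came from B16F10, a mouse melanoma line. The 4 groups of 3 libraries were wild-type control and mutant control (no interferon), and wild-type IFNα and mutant IFNα (given interferon alpha), where wild type and mutant refer to IRF7 and the mutant carries IRF7-C435A, a cysteine replaced by alanine. The labels give no dose or duration of IFNα, and do not say how the mutant line was made or whether it is 1 clone. They name no separate cultures either, so the spread that the p-values rest on is that between these samples and may be technical.

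Type I interferons bind the receptor IFNAR1/IFNAR2, whose kinases JAK1 and TYK2 activate transcription factors. With IRF9 these bind the interferon-stimulated response element (ISRE) in the promoters of target genes. IRF7 is a transcription factor that drives the type I interferon genes and is itself an interferon target. The 40 genes act downstream, as restriction factors, nucleases, helicases, ADP-ribosyltransferases and ubiquitin ligases, and as proteins of nuclear bodies, membranes and mitochondria.

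Promoter windows of 250 bases before to 50 bases after a start site (RefSeq, GRCm38.p6) were found for 32 of the 40 genes, 47 windows in all. The ISRE core, GAAANNGAAA on either strand with overlapping matches counted, was present for 14 of the 32 genes, against 3.99% of 27025 genes with a window (3.44% of 32851 windows). The core of the gamma-activated site, TTCNNNGAA, is its own reverse complement and was present for 4 of the 32, against 9.55% of genes (8.3% of windows). The windows printed here, 5′ to 3′ on the strand of the gene with the ISRE core in capitals, belong to the most abundant gene (Bst2), to the neighbours Phf11d and Phf11b, and to the paralogs Slfn8 and Slfn9.
Bst2 (chr8:71537423-71537722, minus strand): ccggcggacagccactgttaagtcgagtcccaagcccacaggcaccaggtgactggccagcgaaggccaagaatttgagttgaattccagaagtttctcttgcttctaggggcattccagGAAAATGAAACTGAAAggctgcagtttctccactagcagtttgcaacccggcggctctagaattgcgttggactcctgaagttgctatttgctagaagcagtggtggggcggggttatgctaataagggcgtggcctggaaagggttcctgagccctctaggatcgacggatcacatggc
Phf11d (chr14:59365441-59365740, minus strand): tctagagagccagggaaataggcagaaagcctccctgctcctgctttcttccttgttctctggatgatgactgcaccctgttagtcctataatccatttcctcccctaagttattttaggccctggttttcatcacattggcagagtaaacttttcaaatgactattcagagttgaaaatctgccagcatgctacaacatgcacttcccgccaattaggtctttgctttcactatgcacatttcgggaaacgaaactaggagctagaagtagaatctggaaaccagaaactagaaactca
Phf11b (chr14:59341281-59341580, minus strand): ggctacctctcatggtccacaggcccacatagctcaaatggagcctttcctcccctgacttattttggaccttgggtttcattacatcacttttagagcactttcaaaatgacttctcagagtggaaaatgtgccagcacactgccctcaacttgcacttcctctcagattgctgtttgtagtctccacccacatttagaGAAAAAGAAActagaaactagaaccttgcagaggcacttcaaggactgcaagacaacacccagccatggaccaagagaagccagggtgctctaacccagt
Slfn8 (chr11:83020761-83021060, minus strand): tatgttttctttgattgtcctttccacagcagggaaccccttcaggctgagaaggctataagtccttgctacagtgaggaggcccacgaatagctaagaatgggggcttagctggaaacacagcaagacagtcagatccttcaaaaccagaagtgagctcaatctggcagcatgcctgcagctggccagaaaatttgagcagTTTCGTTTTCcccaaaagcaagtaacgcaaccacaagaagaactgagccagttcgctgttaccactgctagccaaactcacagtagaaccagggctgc
Slfn9 (chr11:82991781-82992080, minus strand): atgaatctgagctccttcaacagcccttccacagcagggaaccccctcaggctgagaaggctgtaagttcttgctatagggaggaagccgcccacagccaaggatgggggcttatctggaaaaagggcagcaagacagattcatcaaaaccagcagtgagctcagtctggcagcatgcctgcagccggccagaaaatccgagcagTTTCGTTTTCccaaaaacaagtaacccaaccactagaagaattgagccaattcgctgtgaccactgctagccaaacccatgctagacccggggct

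The Bst2 window held 2 overlapping ISRE cores. In the Slfn8 and Slfn9 windows, 80.8% identical over an alignment of 312 columns, the core lay on the other strand and began at -48 and -45 from the start site. The Phf11b window held 1 core at -50, whereas these letters were not in the Phf11d window, and the 2 windows were 53.2% identical over 357 columns. The Phf11d window does hold GAAA runs with 1 base between them, a spacing that this pattern does not count. The same holds, on 1 strand or the other, for windows of at least Helz2, Pnpt1, Xaf1, Ifi35, Ifi44, Sp100 and Sp110. A window without the core can therefore still hold a similar element. Apobec3, Ddx60, Ogfr, Shisa5, Slfn5, Tdrd7, Trim21, Trim26, Trim30a and Trim34a were the other genes with a core in at least 1 window. Windows for Ifi27l2a, Parp14, Ifi27, Parp9, Rtp4, Parp10, Tor3a and Trim14 were not used here.

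The cells expressed most of these genes without added IFNα. FPKM (fragments scaled for transcript length and library size, a scale on which genes of different length can be compared) ranged in the wild-type controls from 0.0523 ± 0.0459 (SD, n = 3) for Apobec3 to 1504 ± 31.5 for Bst2. The median of the 40 means was 7.75 FPKM there, against 1.36 for all genes tested, and 8.73 in treated wild-type cells, 8.08 in the mutant controls and 8.56 in mutant IFNα. In the wild-type controls 17 of the 40 reached 10 FPKM, a level reached by 21.8% of all genes tested, and 6 reached 100. Those 6 were Bst2, Ifi35 (285 ± 16.1), Ogfr (248.5 ± 41.9), Lgals3bp (212.8 ± 29.7), Ifi27 (120.3 ± 11.3) and Slfn2 (101.3 ± 14.6). The 5 genes under 1 FPKM were Apobec3, Slfn5, Epsti1, Ddx60 and Trim14. Of these Apobec3, Slfn5 and Epsti1 had 17 to 127 counts per library, so their values rest on little signal. Ddx60 and Trim14 had 222 to 620.

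**Figure D1:**
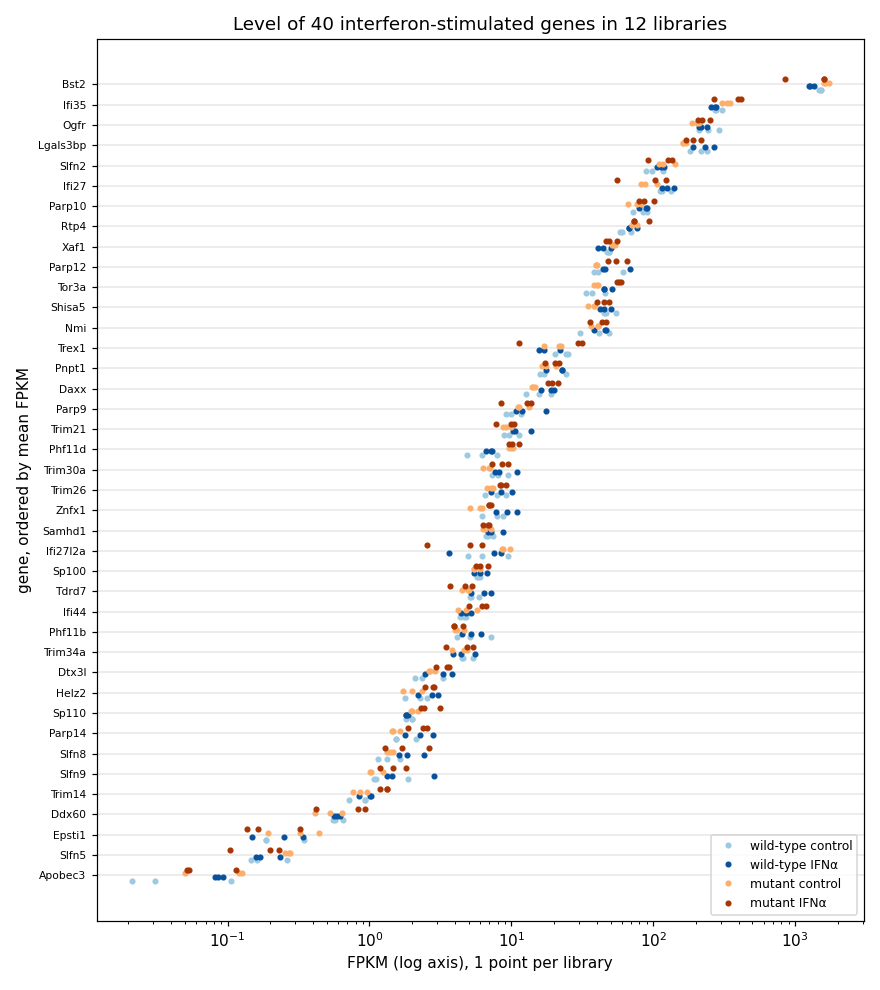
FPKM (log axis) of the 40 genes in each of the 12 libraries, ordered by mean, with 1 point per library coloured by group. The genes span from Apobec3, near 0.1 FPKM, to Bst2, at 854.2 FPKM or more in every library, and the 4 groups lie close together for most genes, while mutant IFNα 3 stands below its replicates for Bst2, Ifi27 and Trex1.

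The libraries held 60511573 to 75927461 counts, and all 8 melanocyte lineage markers, among them Mitf, Tyr and Dct, averaged at least 1 FPKM in every group. In the mutant averaged over both treatments all 8 had negative values, with a median log2 difference of -0.22; 0 were called and 5 were lower at an unadjusted p under 0.05. Transcripts of lung genes, summed over 8 markers, reached 43.5 to 66.4 CPM (counts scaled to library size) in 8 libraries and at most 0.228 in the other 4, which were wild-type controls 2 and 3 and the first and second mutant IFNα libraries. They therefore move with IFNα in the wild type and against it in the mutant. Within groups only wild-type control 1 and mutant IFNα 3 differ from their replicates in these transcripts, so a term for them rests on those libraries. Without both of those libraries each group has lung transcripts in all or none of its libraries. Each single comparison then cannot be told apart from lung transcripts. The sum over 20 leukocyte markers was 151 to 168 CPM in the mutant controls, 94.1 to 136 in the wild-type controls, 93.6 to 132 in wild-type IFNα and 95.2 to 133 in mutant IFNα. Between 7 and 9 of the 20 averaged at least 1 FPKM in each group. Interferon-stimulated genes are also expressed by leukocytes, and the part of these transcripts, or of the melanocyte difference, in the values below was not tested. In bulk RNA fewer cells of a type and less RNA per cell cannot be told apart. The library mutant IFNα 3 was less like its replicates than they were like each other. Over 6318 well-counted genes its log2 ratios to them had SDs of 0.438 and 0.435, against 0.278 for the pair.

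Irf7 itself was lower in the mutant. In the wild type the controls had 11.6, 12.8 and 12.5 FPKM, and the IFNα libraries had 8.84, 9.87 and 8.45. The mutant had 4.99, 4.44 and 5.2 FPKM without IFNα, and 4.63, 4.69 and 7.23 with it. All mutant libraries lay below all wild-type libraries. Averaged over both treatments Irf7 fell by 0.93 ± 0.12 on the log2 scale (standard error; edgeR's quasi-likelihood test, Benjamini-Hochberg adjusted p = 0.00113). The substitution itself leaves no mark in gene counts and was not checked.

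IFNα was compared with control in each line, and then averaged over both lines with 6 libraries against 6. Changes are given on the log2 scale with their standard errors, from edgeR's quasi-likelihood test over the 12 libraries, and a gene is called at a Benjamini-Hochberg adjusted p under 0.05 over all genes tested. Tor3a, a torsin ATPase of the endoplasmic reticulum, was the only 1 of the 40 genes called. It rose by 0.38 ± 0.07 averaged over both lines (1.3-fold, adjusted p = 0.0477). Across the 40 genes 31 averaged values were positive and 9 negative, with a median of 0.10, while the median of all genes was 0.00.

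Tor3a had 33.5, 37.2 and 45.9 FPKM in wild-type cells without IFNα and 51.4, 44.8 and 44.8 in those given IFNα. In the mutant it had 40.2, 38.3 and 41.1 FPKM without IFNα and 57.4, 58.9 and 55.7 with it. The groups did not overlap in the mutant, while in the wild type the highest control was above 2 of the 3 IFNα libraries on this scale. The difference was 0.26 ± 0.10 in wild-type cells and 0.50 ± 0.10 in mutant cells, neither of which was called (adjusted p = 0.798 and 0.167), and the difference between them, 0.24 ± 0.14, was not called (adjusted p = 0.916). The averaged call was kept in 2 of 12 fits that each left out 1 library, those without wild-type control 3 or mutant IFNα 3. Over the 12 fits the value was 0.35 to 0.42 with an adjusted p of 0.0423 to 0.179. With a term for lung transcripts it was 0.38 (adjusted p = 0.0408), and without wild-type control 1 and mutant IFNα 3 together it was 0.35 (adjusted p = 0.0616).

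Parp14, a mono-ADP-ribosyltransferase, had the next smallest p in the wild type. Its level was 1.54, 1.54 and 2.12 FPKM in wild-type cells without IFNα and 2.82, 1.79 and 2.29 in those given IFNα, and these groups overlapped. In the mutant, 1.65, 1.46 and 1.44 FPKM in the controls lay below 2.37, 2.56 and 1.86 with IFNα. The averaged difference was 0.47 ± 0.11 (adjusted p = 0.123), the largest positive value of the 40. Daxx, a histone chaperone of PML nuclear bodies, had 12.6, 15.7 and 19.2 FPKM in wild-type cells without IFNα and 19.9, 16.3 and 19.1 in those given IFNα. In the mutant it had 14.3, 13.9 and 14.6 FPKM without IFNα and 19.3, 21.4 and 18.1 with it, again without overlap. Its averaged difference was 0.32 ± 0.08 (adjusted p = 0.175). Both genes passed in DESeq2 (adjusted p = 0.00584 and 0.0199), which called 3 of the 40 and 2.11% of all genes in this comparison.

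**Figure D2:**
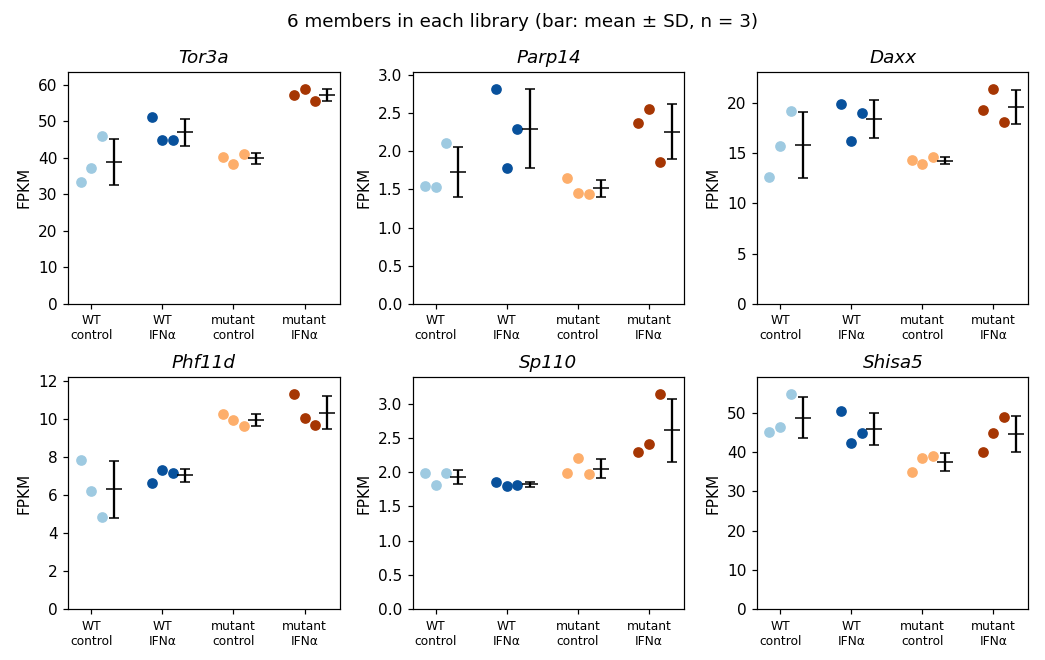
FPKM in each library of the 6 genes that were called or had 1 of the 2 smallest p-values in a comparison, with bars for the mean ± SD of 3 libraries. For Tor3a, Parp14 and Daxx the mutant IFNα libraries lie above the mutant controls, and for Phf11d all mutant libraries, from 9.63 FPKM upwards, lie above all wild-type libraries.

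With IFNα in the wild type edgeR and DESeq2 called 0 of the 40 genes and limma 0 of the 36 that passed its FPKM minimum of 1, where edgeR called 0.0227%, DESeq2 0.387% and limma 0.0297% of all genes each tested. At an unadjusted p under 0.05 edgeR had 4 higher and 0 lower, against 2.68% and 2.76% of all genes. In the mutant edgeR called 0 of the 40 and 0.00569% of all genes. There 10 of the 40 were higher and 1 lower at an unadjusted p under 0.05, against 5.7% and 4.62% of all genes, and DESeq2 called Daxx and Tor3a (0.952% of all genes) while limma called 0 of 36 (0.0297%). Averaged over both lines 1 of 40 was called against 0.171% of all genes, and 12 were higher and 0 lower at an unadjusted p under 0.05 against 5.7% and 4.51%. The sign was the same in both lines for 25 of the 40 genes, 62.5% against 54.2% of all genes tested; these comparisons share no libraries.

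By role, all 5 ADP-ribosyltransferase genes had positive averaged values, with a median of 0.29. Beside Parp14 these were Parp12 (0.31 ± 0.11) and Parp10 (0.14 ± 0.09), which modify single residues with ADP-ribose, and Parp9 (0.15 ± 0.13) with its partner Dtx3l (0.29 ± 0.11), a ubiquitin ligase encoded next to it. Parp9 and Dtx3l overlap by 682 bases on opposite strands, and because strand use in the counting is not given in the sources used here their reads cannot be fully told apart. None of the 5 was called. Of the 5 TRIM genes, which encode ubiquitin ligases and related adaptors, 4 were positive, led by Trim14 (0.34 ± 0.12), then Trim30a (0.19 ± 0.09), Trim26 (0.18 ± 0.08) and Trim21 (0.09 ± 0.10), while Trim34a was at -0.04 ± 0.13. Of the 50-base words in the transcripts of Trim14, 57.8% also occur in other genes, most in Nans on the opposite strand, and of those of Trim34a 61.9%, most in Trim34b, so both values are uncertain.

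The Schlafen genes, regulators of cell growth and viral replication, lie in a cluster on chromosome 11. Slfn8 and Slfn9, whose promoter windows are printed above, had averaged values of 0.44 ± 0.15 and 0.42 ± 0.18 (adjusted p = 0.32 and 0.432), Slfn2 0.03 ± 0.12 and Slfn5, at about 0.2 FPKM, -0.31 ± 0.24. Slfn8 had 1.34, 1.16 and 1.65 FPKM in the wild-type controls and 2.42, 1.62 and 1.84 with IFNα, and 1.47, 1.4 and 1.32 FPKM in the mutant controls and 1.68, 2.63 and 1.3 with IFNα. Most IFNα libraries were higher, but in both lines on this scale the ranges overlapped. Slfn8 and Slfn9 share 15.4% and 11.9% of their 50-base words with other genes, most with Slfn10-ps.

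Among genes for nucleic acid enzymes and sensors 6 of 7 were positive. The helicases Helz2 (0.33 ± 0.10), Znfx1 (0.27 ± 0.09) and Ddx60 (0.21 ± 0.18) led, followed by Pnpt1, a mitochondrial RNA exonuclease (0.10 ± 0.13), Apobec3, a cytidine deaminase (0.10 ± 0.39), and Samhd1, a deoxynucleotide hydrolase (0.04 ± 0.07). Trex1, the main cytosolic DNA exonuclease, was at -0.06 ± 0.20, but 95.6% of its 50-base words also lie in other genes, most in Atrip, so its value is uncertain. Of the other nuclear proteins, Sp110 (0.11 ± 0.10), Phf11d (0.08 ± 0.12) and Sp100 (0.06 ± 0.08) were positive and Phf11b was at -0.07 ± 0.16. Nmi and Ifi35, which bind each other, were at 0.08 ± 0.13 and 0.00 ± 0.11.

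The 4 lowest averaged values were those of Ifi27l2a, Slfn5, Epsti1 and Bst2. Bst2 (tetherin, which holds budding virus at the cell surface) was at -0.27 ± 0.13 averaged over both lines (adjusted p = 0.513), with 1533, 1510 and 1471 FPKM in wild-type cells without IFNα and 1249, 1364 and 1279 in those given IFNα. In the mutant it had 1723, 1606 and 1634 FPKM without IFNα and 1610, 1602 and 854.2 with it. The value in the mutant was -0.31 ± 0.19 with mutant IFNα 3, the low library, and -0.07 without it, and the averaged value was then -0.15. Ifi27l2a, a small mitochondrial protein gene, was at -0.99 ± 0.38 in the mutant (unadjusted p = 0.0199, adjusted p = 0.421), with 9.86, 8.63 and 8.7 FPKM without IFNα and 6.2, 5.13 and 2.53 with it. In the wild type its value was -0.08 ± 0.37, with 9.48, 6.26 and 4.94 FPKM in the controls and 3.65, 7.6 and 8.41 with IFNα. Bst2, Ifi27l2a, Slfn8 and Ifi35 were chosen for printing by library after their values were seen. The remaining genes were Rtp4, a receptor chaperone (0.13 ± 0.10), Lgals3bp, a secreted glycoprotein (0.15 ± 0.09), Ifi27 (0.03 ± 0.14), Xaf1, an antagonist of XIAP (-0.09 ± 0.08), Shisa5 (0.06 ± 0.07), Ifi44 (0.15 ± 0.10), Tdrd7 (0.05 ± 0.10), Epsti1 (-0.29 ± 0.37) and Ogfr (-0.02 ± 0.08).

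**Figure D3:**
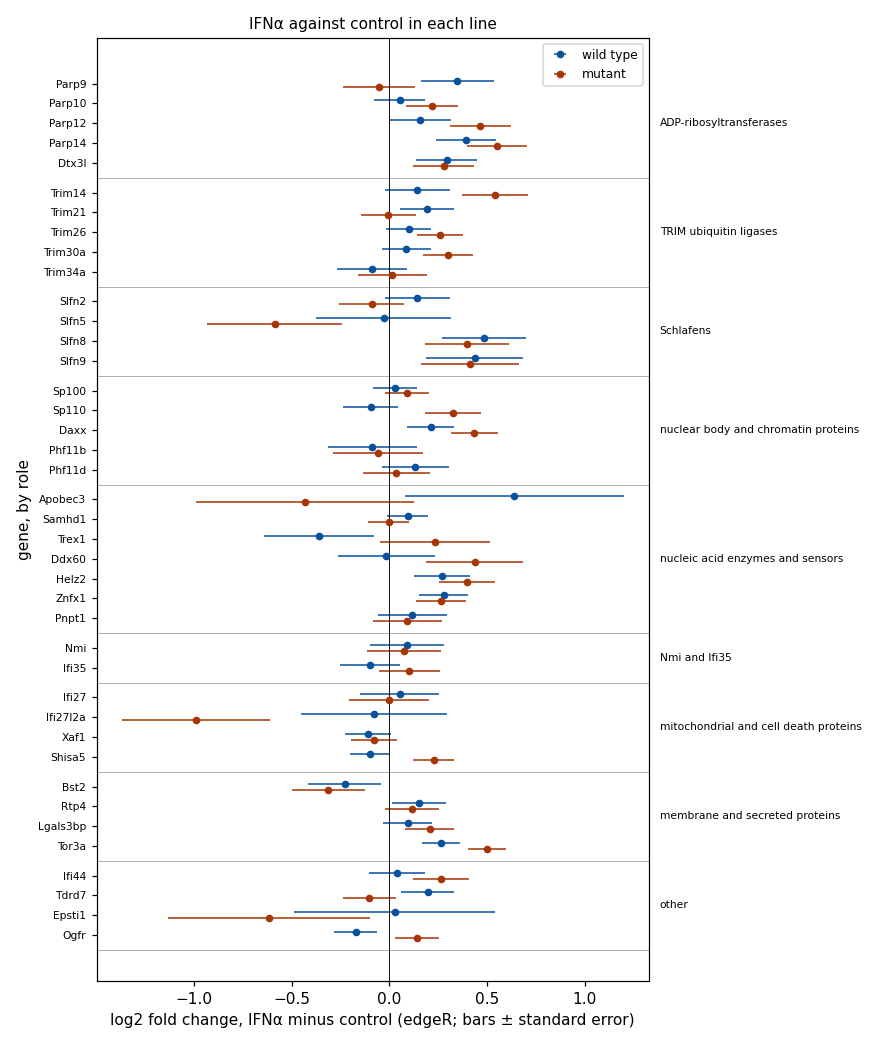
log2 fold change of IFNα against control for each of the 40 genes by role, in the wild type (blue) and the mutant (brown), with bars of ± 1 standard error. All but 7 of the 80 values lie between -0.5 and 0.5, and values on both sides of 0 are seen in both lines.

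The averaged IFNα value went with transcript length among the 40 genes. Spearman's correlation with the longest annotated transcript was 0.635 over the 40 genes and 0.173 over 17193 genes with a length, given as a description, since all points share the same libraries. In the 13 longest, 3.77 to 10.1 kb, 12 values were positive with a median of 0.21, in the 14 of middle length 12 with a median of 0.11, and in the 13 shortest, 0.463 to 2.45 kb, 7 with a median of 0.00. With the length trend of each library removed, an alternative chosen after seeing the data, the correlation was 0.496 over the 40 and -0.03 over all genes, and Tor3a was at 0.35 (adjusted p = 0.038). The part of length-dependent library differences in these values was not tested further. The 14 genes with an ISRE core had a median of 0.08, with 9 positive, and the 18 with a window but no core had 0.09, with 15 positive. Some of the 18, among them Phf11d and Helz2, hold GAAA runs at another spacing, so the groups do not separate genes with and without such elements.

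**Figure D4:**
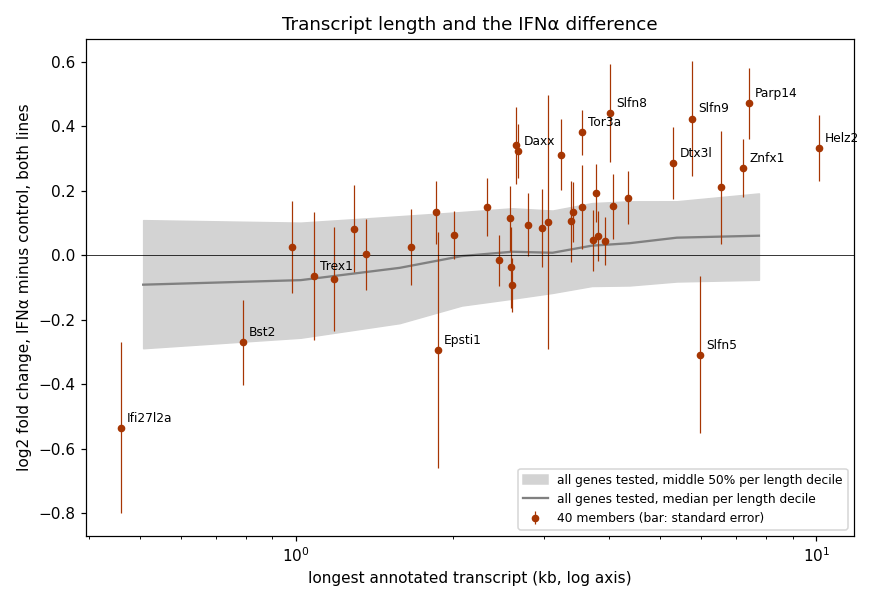
Averaged IFNα log2 fold change of the 40 genes (points, ± standard error) against the longest annotated transcript (kb, log axis), over the median and middle 50% of all genes tested in each length decile. The median of all genes runs from -0.09 in the shortest decile to 0.06 in the longest, and the members run from Ifi27l2a at -0.54 and Bst2 at -0.27 to Parp14 at 0.47.

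The mutant was compared with the wild type without IFNα, with IFNα and averaged over both. Phf11d and Sp110, both nuclear proteins with chromatin-reading domains, were the 2 genes called, each higher in the mutant in the averaged comparison, and 493 genes were called in all. Phf11d, a PHD finger protein, rose by 0.69 ± 0.12 (1.61-fold, adjusted p = 0.0088). Sp110, a relative of the nuclear body protein Sp100, rose by 0.40 ± 0.10 (1.32-fold, adjusted p = 0.0489). In the single comparisons neither was called.

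Phf11d (ENSMUSG00000068245, chromosome 14, 59584856 to 59602919 on the minus strand in the deposited table) had 7.87, 6.21 and 4.87 FPKM in wild-type cells without IFNα and 6.66, 7.32 and 7.15 in those given IFNα. In the mutant it had 10.3, 9.95 and 9.63 FPKM without IFNα and 11.3, 10.1 and 9.69 with it. All 6 mutant libraries were above all 6 wild-type libraries. The difference was 0.74 ± 0.17 without IFNα (adjusted p = 0.13) and 0.64 ± 0.17 with it (adjusted p = 0.113). These became calls without wild-type control 1 (adjusted p = 0.0344) and without wild-type control 3 (adjusted p = 0.043), respectively. IFNα itself gave 0.13 ± 0.17 (wild type) and 0.04 ± 0.17 (mutant). The averaged call held in all 12 fits that each left out 1 library (0.58 to 0.80, adjusted p from 0.00227 to 0.0317), and in DESeq2 (0.68, adjusted p = 1.47e-05) and limma (adjusted p = 0.00838). With a term for lung transcripts the averaged value was 0.70 (adjusted p = 0.00743). The single comparisons of Phf11d were then at 0.59 without IFNα (adjusted p = 0.562) and 0.82 with IFNα (adjusted p = 0.084). Of its 50-base transcript words, 12.2% also occur in other genes, most often in Phf11c, which was at 0.13 to 0.17 FPKM in the 4 groups. The neighbour Phf11b, 6.1 kb away, had averaged 5.51 FPKM in the wild-type controls and 4.25 in the mutant controls, with an averaged value of -0.27 ± 0.16 (adjusted p = 0.399). Of the 50-base words of Phf11b 47% also occur in other genes, most in Phf11a, so its value is uncertain.

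Sp110 (ENSMUSG00000070034) had 1.99, 1.81 and 1.99 FPKM in wild-type cells without IFNα and 1.86, 1.8 and 1.81 in those given IFNα. In the mutant it had 1.98, 2.21 and 1.97 FPKM without IFNα and 2.29, 2.41 and 3.14 with it. The 3 mutant IFNα libraries were the highest of all, with mutant IFNα 3 above the rest. The difference was 0.19 ± 0.14 without IFNα (adjusted p = 0.663) and 0.61 ± 0.14 with it (adjusted p = 0.0698), and the interaction was 0.42 ± 0.20 (unadjusted p = 0.0537, adjusted p = 0.916). The averaged call was lost in every one of the 12 fits without 1 library (0.32 to 0.44, adjusted p from 0.0529 to 0.143), and with library totals (adjusted p = 0.126) and limma (0.128), while DESeq2 kept it (adjusted p = 0.00839). With a term for lung transcripts it was 0.39 (adjusted p = 0.0286), the difference with IFNα was then called at 0.80 (adjusted p = 0.0345), and that without IFNα turned from 0.19 to -0.02 (adjusted p = 0.992). This term rests on how wild-type control 1 and mutant IFNα 3 differ from their replicates. Mutant IFNα 3 also held the highest Sp110 value, and its part in this shift was not tested. Of the 50-base words of Sp110 53.8% also occur in other genes, most in Gm16026, a predicted gene, so the value of Sp110 is uncertain. Gm16026 had a mean of 0.147 FPKM in wild-type controls and 0.305 in mutant IFNα. In the mutant averaged over both treatments edgeR called Gm16026 higher too (0.78 ± 0.195, adjusted p = 0.0476).

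Tor3a, Ifi35 and Znfx1 came next in the averaged comparison, none of them called in the edgeR fit over the 12 libraries. Tor3a was at 0.26 ± 0.07 (adjusted p = 0.0607), 0.15 ± 0.10 without IFNα and 0.38 ± 0.10 with it. With the length trend of each library removed it was called, at 0.32 averaged (adjusted p = 0.0149) and 0.45 with IFNα (adjusted p = 0.0391). Ifi35 was at 0.40 ± 0.11 (adjusted p = 0.0682), with 303.3, 278.4 and 273.2 FPKM in the wild-type controls, 254.2, 274.5 and 278.1 in treated wild-type cells, 346.1, 307.3 and 332.6 in the mutant controls and 415.4, 393.6 and 268 in mutant IFNα. Without mutant IFNα 3, the low library, it was 0.48 and called (adjusted p = 0.0101). Znfx1 was lower, at -0.29 ± 0.09 (adjusted p = 0.0963), and was called without wild-type control 1 (adjusted p = 0.0481). With the length trend removed Znfx1 was at -0.17 (adjusted p = 0.252) and Ifi35 at 0.31 (adjusted p = 0.0853), neither of them called. Spearman's correlation of the averaged mutant value with transcript length was -0.273 over all genes with a length and -0.0629 over the 40. DESeq2 called Tor3a, Ifi35 and Znfx1, for 5 of the 40 in all, where it called 7.29% of all genes. Shisa5, a p53-induced protein of the endoplasmic reticulum, had 45, 46.5 and 54.7 FPKM in the wild-type controls, 50.4, 42.5 and 44.9 in treated wild-type cells, 34.9, 38.5 and 39.1 in the mutant controls and 40, 44.8 and 49 in mutant IFNα. The mutant controls were below all wild-type libraries, at -0.27 ± 0.10 against the wild-type controls (adjusted p = 0.384), but with IFNα the lines overlapped (0.05 ± 0.10).

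Without IFNα edgeR called 0 of the 40 genes, limma 0 of 36 and DESeq2 1 of 40, Phf11d, where edgeR called 0.165%, limma 0.347% and DESeq2 1.26% of all genes each tested. At an unadjusted p under 0.05 3 were higher and 2 lower, against 6.07% and 4.63% of all genes. With IFNα edgeR called 0 of 40 and limma 0 of 36, where they called 0.597% and 0.555% of all genes, and DESeq2 called Ifi35, Phf11d, Sp110 and Tor3a, where it called 4.02%. In edgeR 6 were higher and 2 lower at an unadjusted p under 0.05 against 7.56% and 6.15%. In the averaged comparison 2 of 40 were called where 2.8% of all genes were, and 9 were higher and 4 lower at an unadjusted p under 0.05 against 9.88% and 8.21%. As shares of the 40, 5% were called, 22.5% were higher and 10% lower; the differences from all genes were not tested. Without wild-type control 1 and mutant IFNα 3 together, 6 of the 40 and 4.67% of all genes were called in the averaged comparison, with Phf11d, Sp110, Ifi35, Slfn2 and Bst2 higher and Znfx1 lower in the mutant. The sign was the same without and with IFNα for 23 of 40 genes, 57.5% against 61.1% of all genes.

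**Figure D5:**
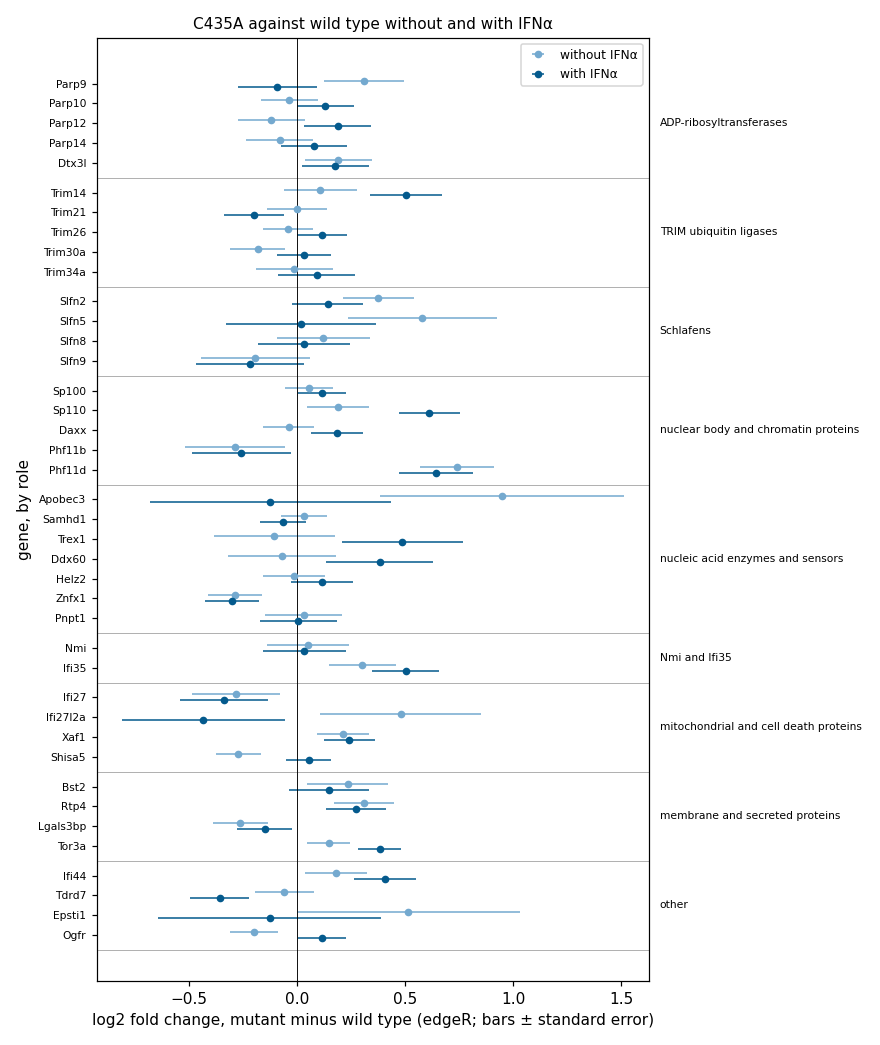
log2 fold change of mutant against wild type for each of the 40 genes by role, without (light blue) and with IFNα (dark blue), with bars of ± 1 standard error. Phf11d stands above 0.6 in both comparisons and Znfx1 near -0.3 in both, while Sp110 and Trim14 are higher with IFNα than without it.

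The interaction asked whether IFNα acted differently in the 2 lines. EdgeR called 0 of the 40 and 0% of all genes, limma 0 of 36 and 0%, and DESeq2 0 of the 40 and 0.0604%. In edgeR at an unadjusted p under 0.05 there was 1 higher member, Shisa5 (0.33 ± 0.15, unadjusted p = 0.0446), and 0 lower, against 2.75% and 2.42% of all genes. The 95% interval of the interaction lay within 2-fold in either direction for 34 of the 40 genes, and the largest standard error was 0.79, for Apobec3. For IFNα in each line the intervals of 38 genes (wild type) and 36 genes (mutant) lay within 2-fold. The interaction runs along the lung transcripts, which move oppositely with IFNα in the 2 lines. All 8 lung markers had negative interaction values, with a median of -2.97 and 0 called. With a term for lung transcripts Shisa5 was at 0.44 (adjusted p = 0.688). Trex1 then moved from 0.59 to -0.48 (adjusted p = 0.851). The part of lung transcripts in the interaction values was not tested.

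Other genes of the pathway were read from 2 lists. Of 12 receptor and signalling genes 1 was called with IFNα averaged over both lines, where 0.171% of all genes were called. It was Irf1, a transcription factor induced by interferons, which rose by 0.69 ± 0.07 (adjusted p = 0.00171). Socs1, a feedback inhibitor of JAK kinases, was at 0.79 ± 0.15 (adjusted p = 0.0561), and Stat2 was at 0.32 ± 0.09. DESeq2, limma and edgeR without mutant IFNα 3 each called 2 of the 12 in this comparison, all higher. Over all genes they called 287, 26 and 44. With IFNα in the wild type alone edgeR called 1 of the 12, higher, and 4 of all genes. In the mutant averaged over both treatments Irf1 rose by 0.43 ± 0.07 (adjusted p = 0.00583), while Irf7 and Jak1 fell, Jak1 by 0.33 ± 0.08 (adjusted p = 0.0497), and Ifnar2 was at 0.19 ± 0.08. Of the 12, DESeq2 called 1 higher and 2 lower there and limma 0 higher and 1 lower, and without mutant IFNα 3 edgeR called 1 higher and 1 lower. Of all genes tested edgeR called 2.8% there, DESeq2 7.29% and limma 397 of 10094, and edgeR without mutant IFNα 3 called 550 genes. Of 42 genes in other interferon-stimulated families 0 were called with IFNα by edgeR or limma and 6, all higher, by DESeq2, with 11 higher and 2 lower in edgeR at an unadjusted p under 0.05. Of all genes tested edgeR called 0.171%, limma 26 of 10094 and DESeq2 2.11%. At that unadjusted p 5.7% of all genes were higher and 4.51% lower in edgeR. Cmpk2, a mitochondrial nucleotide kinase, had the smallest p (0.53 ± 0.11, adjusted p = 0.096), then Ifi47 (0.42 ± 0.12), Mx1 (0.36 ± 0.10) and Oasl2 (0.32 ± 0.09). In the mutant averaged over both treatments 9 of the 42 were called higher and 0 lower, with 11 higher and 1 lower in DESeq2 and 7 higher and 0 lower in limma. Of all 17590 genes edgeR called 332 higher and 161 lower. In either direction DESeq2 called 7.29% of all genes and limma 397 of 10094. The 4 with the smallest p were Isg20, an RNA exonuclease (0.68 ± 0.08, adjusted p = 0.000417), Zbp1, a sensor of Z-form nucleic acids (0.76 ± 0.09, adjusted p = 0.000859), Oasl1 (0.84 ± 0.11) and the GTPase Tgtp1 (0.77 ± 0.10, adjusted p = 0.00113 for both).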

How the data were processed

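RNA of 12 libraries, 3 in each of 4 groups, was analysed from 1 table, with groups taken from the labels. Poly(A) RNA was made into dUTP-stranded, paired-end libraries with molecular identifiers, per the labels' protocols. Tools named in the submitters' processing notes are HISAT2 2.0.4 and StringTie 1.3.4d, cutadapt 1.9, UMI-tools, edgeR and DESeq2, with GRCm38 as build; how fragments were counted, and whether strand or identifiers were used, is not given in the sources used here. The authors deposited raw counts per gene, whole numbers not scaled for depth, and FPKM, per the file headers, which scale for library size and transcript length. Gene positions are as deposited; they are not those of GRCm38.p6, the build of the RefSeq promoter windows, so the 2 were kept apart.

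Counts were tested with edgeR 4.0.16 (R 4.3.3): TMM scaling, the default low-count filter (17590 of 27503 genes kept), 4 group means in 1 fit over 12 libraries, quasi-likelihood tests, two-sided, with Benjamini-Hochberg adjustment within each of 7 comparisons and a threshold of 0.05. The common biological coefficient of variation was 28.9%. Between libraries of a group the SD of the log2 ratio was 0.232 to 0.438 over genes averaging 1000 counts or more, so for such genes the spread between libraries, not depth, sets the precision. Members with few counts, such as Apobec3 (17 to 84 per library), also carry counting error. FPKM are printed as levels. Alternatives were DESeq2 1.42.0, limma 3.58.1 on log2(FPKM + 1), other scalings, filters and pseudocounts, a term for lung transcripts, a replicate block and libraries left out. Shared 50-base words and lengths came from GENCODE transcripts of GRCm38, and promoter windows were aligned with Biopython 1.88. The code was tested on simulated counts. Values by library are printed for genes called in a comparison and for the 2 with the smallest p in each; other genes of the pathway are named by the smallest p in the averaged comparisons. The 40 genes and all lists were chosen with earlier results of these data known. The values of 1 gene of the signalling list are not reported here.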

Additional observations from a re-analysis of the deposited data

How the results depend on the processing

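Of the 40 genes, the number called with IFNα averaged over both lines was 1 in the fit reported. It was 0 with library totals, without a filter on low counts, with limma at a pseudocount of 1, 0.1 or 5, an FPKM minimum of 5 or no filter, and without wild-type control 1 and mutant IFNα 3 together, 0 to 1 with 1 library left out, and 3 with DESeq2. In the mutant averaged over both treatments it was 2 in the fit reported, 1 with DESeq2 size factors, library totals, no filter on low counts and the same limma settings, 1 to 2 with 1 library left out, 3 with the length trend removed (Tor3a added), 5 with DESeq2 and 6 without the 2 libraries together. Phf11d was called in each of these. Of all genes tested 0.171% were called with IFNα averaged in the fit reported and 2.11% with DESeq2. In the mutant averaged these shares were 2.8% and 7.29%, and 4.67% without the 2 libraries together. With limma at a pseudocount of 1 the calls were 26 and 397 of 10094 genes. The fit with the length trend removed called 468 genes in the mutant averaged, against 493 in the fit reported. At an FPKM minimum of 1 limma tested 36 of the 40. The single comparisons had 0 calls in the fit reported. With IFNα in the mutant DESeq2 called 2 and the fit without the 2 libraries 1. For the mutant without IFNα both called 1, and 0 to 1 were called with 1 library left out. For the mutant with IFNα DESeq2 called 4, the fit without the 2 libraries 3, the term for lung transcripts 1, the removal of the length trend (chosen after seeing the data) 1, and 0 to 1 were called with 1 library left out. The cause of these differences was not tested. In the fit without the 2 libraries, lung transcripts are present in all or none of each group. Its single comparisons therefore cannot be told apart from lung transcripts.

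The members' median in the mutant averaged over both treatments was 0.06, but -0.050 with limma at an FPKM minimum of 5 and -0.03 with library totals, where the median of all genes was -0.08 and -0.09. Its sign therefore depends on the processing. The limma setting also changes the measure and which members are tested, so the part of the scaling was not tested. In both settings the members' median was above that of all genes. With limma at a pseudocount of 0.1 the median of all genes was -0.11. Same-numbered libraries showed no clear shared deviation (correlations from -0.134 to 0.0858). The labels do not say what the numbers mark, and with 3 libraries per group these correlations cannot show whether they pair libraries. With a replicate block 0 members were called with IFNα averaged and 1, Phf11d, in the mutant averaged. Over single members, 39 of 7371 alternative values lost a call, 29 gained one, and 0 called values changed direction. In 97, a value uncalled in both fits changed sign by more than its standard error. The remaining 7206 were mostly uncalled in both fits, so they say little about stability.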
